A study of Mus musculus with 8 samples.

Results

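Expression of 46 interferon-stimulated genes was examined in 5 cancers of the mouse gastric squamous-columnar junction (SCJ), the border between the squamous forestomach and the glandular stomach, together with 3 control samples of the same junction. The 46 genes are among the 23361 genes of the deposited RNA-seq table, and each was found there by its symbol. The list was selected on these same samples, with the FPKM of the controls and of the cancers known, so the spread among the controls and the counts of members called are a description and no independent evidence. The cancers were tumors, labelled Trp53-/-Rb1-/-, of mice that carried the Lgr5-eGFP-IRES-CreERT2 allele, which drives inducible Cre, with loxP/loxP alleles of both Trp53 and Rb1 and the Ai9 reporter. Tamoxifen was given at 6 to 10 weeks of age, and tumors were taken at least 250 days later, with their borders set by the tdTomato reporter. Lgr5 drives the Cre, so cells of a tumor that do not descend from Lgr5-expressing cells, such as stroma and leukocytes, carry unrecombined genes. The controls were wild type mice of paired age, and control mice of the tumor induction experiments also received tamoxifen, but whether these stomachs came from such mice is not stated. The methods count 5 tumors and 3 control stomachs, but the sex of the mice and whether the tumors came from separate animals are not stated, so the p-values measure the spread between these samples.

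Interferons are secreted proteins that cells release when sensors detect foreign or misplaced nucleic acid. Type I and type III interferons signal through JAK1 and TYK2 to a complex with STAT2 and IRF9, which binds the interferon-stimulated response element (ISRE), and type II interferon acts mainly on genes with the gamma-activated sequence (GAS). The induced genes encode sensors of viral RNA, the ubiquitin-like protein ISG15, enzymes that degrade viral RNA or block its translation, and GTPases that attack intracellular pathogens. Several of the products are themselves sensors and transcription factors of the pathway, so that induction feeds back on itself.

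The promoters of 4 members are shown because these members had the widest spread among the controls of those with ISRE letters in their promoter window. The letters searched were GAAANNGAA, which read TTCNNTTTC on the other strand. The sequences are from RefSeq (GRCm38.p6), run 5′ to 3′ on the strand of the gene, end at the base before its start, and have each ISRE match in capitals, where neighboring matches can overlap.
Ifit3 (chr19:34583408-34583528, plus strand): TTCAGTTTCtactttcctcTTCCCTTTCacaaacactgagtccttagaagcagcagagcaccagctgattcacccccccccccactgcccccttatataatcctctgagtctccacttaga
Ifit1 (chr19:34640769-34640888, plus strand): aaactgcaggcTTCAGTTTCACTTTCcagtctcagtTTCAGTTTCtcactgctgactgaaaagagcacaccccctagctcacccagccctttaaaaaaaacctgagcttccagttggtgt
Gm14446 (chr19:34601969-34602088, minus strand): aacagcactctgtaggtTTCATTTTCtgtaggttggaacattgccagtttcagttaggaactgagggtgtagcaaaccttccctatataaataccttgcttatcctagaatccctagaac
Apol9b (chr15:77728952-77729071, plus strand): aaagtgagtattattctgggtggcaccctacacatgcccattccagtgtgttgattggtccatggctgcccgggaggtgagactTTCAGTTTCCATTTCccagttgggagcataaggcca

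The deposited values are FPKM (fragments per kilobase, scaled to the mapped fragments of a library), which allow for gene length, rounded to whole numbers. Read totals are not part of them, so depth is unknown and a 0 means only that the table lists 0. FPKM summed over all genes to between 403569 and 573858 in the cancers and between 887141 and 992550 in the controls. Rb1 was lower in the cancers (log2 fold change -0.90, standard error, SE, of 0.16, limma adjusted p = 0.0059), whereas Trp53 did not pass the threshold (log2 fold change -0.08, limma adjusted p = 0.87). When libraries were rescaled to the same sum (TPM), Rb1 was no longer called (log2 fold change -0.054, limma adjusted p = 0.84) and Trp53 was called higher (0.86, adjusted p = 0.020), with the median of all genes at 0.81. Control 2 stood apart in its sex-linked genes. The Y-linked Eif2s3y showed FPKM of 32 in control 1, 6 in control 2 and 0 in control 3, and Xist, which is transcribed from the inactive X chromosome, had 0, 16 and 14. Control 2 thus held RNA of both kinds, while each cancer and each other control held 1 kind. Whether control 2 is the RNA of 1 animal, independent of the other controls, is not settled by the labels and was not tested, and the p-values treat the 3 controls as independent. The part of this in the results below was not tested, and each main count is also given with 1 control left out.

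The level of the interferon-stimulated genes differed most among the controls. The median FPKM over the 46 members was 7, 3, 7.5, 3 and 4.5 in cancers 1 to 5 and 74, 17 and 5 in controls 1 to 3. Control 1 was thus far above every cancer, control 2 was in between, and control 3 lay among the cancers. The median of all genes tested was level across samples, between 3 and 3.17 on the log2(FPKM + 1) scale, against 2 to 3.08 for the members in the cancers and 6.23, 4.17 and 2.58 in controls 1 to 3. Summed over the members, FPKM ran from 251 to 491 in the cancers and were 6227, 1356 and 381 in controls 1, 2 and 3. The samples are bulk tissue, so fewer cells of a type and less RNA per cell cannot be told apart.

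**Figure D1:**
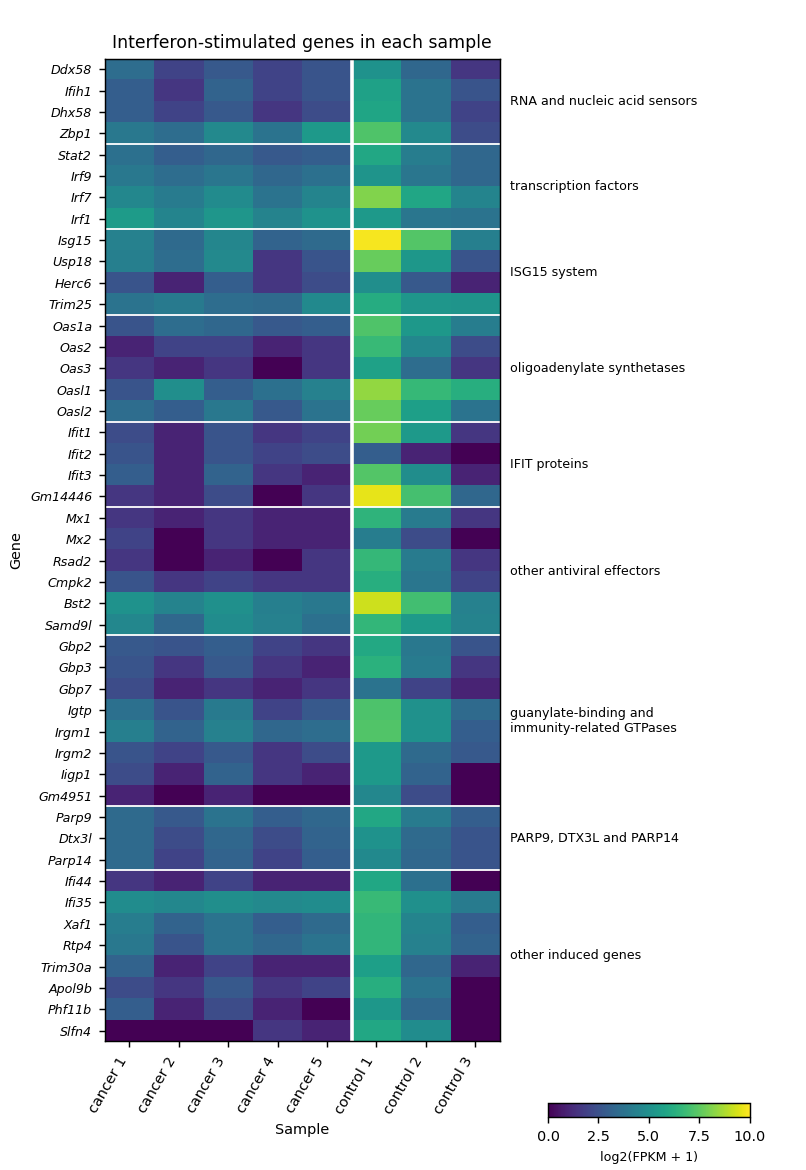
Color shows log2(FPKM + 1) of each of the 46 members (vertical axis, grouped by role) in each of the 8 samples (horizontal axis). Control 1 is the brightest column, with a median of 74 FPKM, and control 3, with a median of 5 FPKM, resembles the cancers.

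Differences between cancers and controls were fitted with limma on log2(FPKM + 1) over the 14357 genes that reached 1 FPKM in 3 samples or more, a filter that all 46 members passed. Of the members, 8 were lower in the cancers at an adjusted p under 0.05, against 18.3% of all genes tested, and 0 were higher, against 16.2% of all genes tested. The 8 were Gm14446, Isg15, Mx1, Oas1a, Oas2, Oasl1, Rsad2 and Trim25. With an unadjusted p under 0.05 in either direction there were 20 of 46 members, against 47.9% of all genes tested. The median log2 fold change was -1.62 over the members and -0.04 over all genes tested, and 44 of the 46 values were below 0. With TPM the median of the members was -0.83 and 38 values were below 0. In 5 members (Gm14446, Trim25, Oasl1, Oas1a and Oas2) every cancer lay below every control, as for 19.8% of all genes tested, and each had p = 0.018 in a two-sided exact permutation test, the smallest p that 5 against 3 samples allow. The count of members lower in the cancers was 3 without control 1, 2 without control 2 and 28 without control 3, fits in which 8.26%, 8.79% and 9.44% of all genes were lower. It was 4 or 5 when any single cancer was left out. In the fits without cancers 1 to 5, 15.4%, 19.3%, 11.6%, 19% and 16.1% of all genes were lower.

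**Figure D2:**
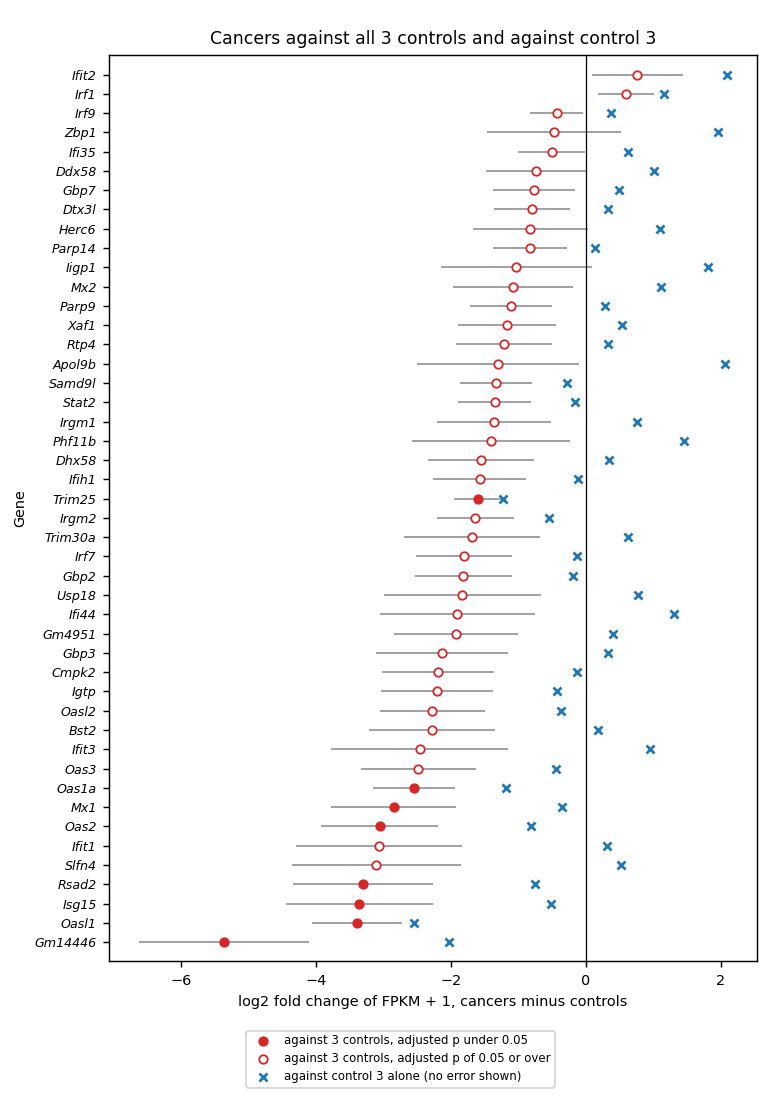
Points show the log2 fold change of FPKM + 1 (cancers minus controls, horizontal axis) of each member (vertical axis) against all 3 controls, with bars of 1 standard error and filled points for an adjusted p under 0.05, and crosses show the difference from control 3 alone. Against all controls 44 of 46 points lie below 0, and against control 3 alone 28 of 46 crosses lie above 0.

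The sensors of viral nucleic acid, Ddx58 (RIG-I), Ifih1 (MDA5), Dhx58 and Zbp1, had a median log2 fold change of -1.14, and 0 of 4 passed the threshold. Ddx58, which detects RNA with a triphosphate end, showed FPKM of 11, 3, 6, 3 and 5 in cancers 1 to 5 and 33, 9 and 2 in controls 1 to 3 (log2 fold change -0.74, SE 0.74, limma adjusted p = 0.46). Ifih1, which detects long double-stranded RNA, had 7, 2, 8, 3 and 5 in the cancers against 52, 13 and 5 in the controls (log2 fold change -1.57, SE 0.69, limma adjusted p = 0.11). Both genes were highest in control 1, and control 3 was at or under the middle of the cancers. Dhx58, a related helicase without a signaling domain, had 7, 3, 6, 2 and 4 in the cancers against 58, 13 and 3 in the controls (log2 fold change -1.55, limma adjusted p = 0.16). Zbp1, a sensor of left-handed nucleic acid that can start necroptosis, had 15, 11, 25, 13 and 40 in the cancers against 152, 25 and 4 in the controls (log2 fold change -0.47, SE 1.0, limma adjusted p = 0.73). For Zbp1 every cancer exceeded control 3, and the fold change was 0.78 without control 1. With TPM the values of Ddx58 and Zbp1 were 0.12 and 0.47, above 0.

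The transcription factors had a median range of 2.25 among the controls on the log2 scale. The threshold was passed by 0 of 4, beside 16.2% of all genes tested higher and 18.3% lower. Their median log2 fold change was -0.89, and 0.02 with TPM. Irf7, the factor that amplifies type I interferon transcription, showed FPKM of 24, 17, 27, 13 and 22 in the cancers against 278, 60 and 22 in the controls (log2 fold change -1.80, SE 0.71, limma adjusted p = 0.082). Stat2, a subunit of the complex that binds the ISRE, had 12, 7, 9, 6 and 7 in the cancers against 62, 18 and 9 in the controls (log2 fold change -1.35, SE 0.54, limma adjusted p = 0.086). In both, control 3 lay within the range of the cancers. Irf9, the DNA-binding subunit of that complex, ranged from 9 to 15 in the cancers and from 9 to 35 in the controls. Irf1, a factor induced by type II interferon, had 44, 22, 37, 21 and 33 in the cancers against 41, 14 and 13 in the controls (log2 fold change 0.59, SE 0.42, limma adjusted p = 0.29). It was the 1 member in which control 1 did not exceed every cancer. With TPM it was the 1 member called higher, beside 50% of all genes tested.

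The ISG15 system conjugates the ubiquitin-like ISG15 to newly made proteins. Isg15 (chr4:156199424-156200818, mm10) showed FPKM of 20, 10, 23, 8 and 10 in the cancers against 928, 159 and 19 in the controls. Control 1 was 40.3 times the highest cancer, but control 3 was below cancers 1 and 3. The log2 fold change of -3.35 (SE 1.08) had an adjusted p of 0.046 from limma and a p of 0.054 in the two-sided exact permutation test. Usp18, which removes ISG15 and restrains receptor signaling, had 19, 11, 25, 2 and 5 in the cancers against 204, 38 and 5 in the controls (log2 fold change -1.83, SE 1.16, limma adjusted p = 0.24). Trim25, a ubiquitin ligase that activates RIG-I, had the narrowest spread of all members among the controls, with 13, 16, 11, 10 and 26 in the cancers against 72, 37 and 35 in the controls. Its groups did not overlap, and it fell by 1.6 on the log2 scale (SE 0.35, limma adjusted p = 0.013). Without control 1 its adjusted p was 0.053, and with TPM its log2 fold change was -0.67 (adjusted p = 0.16, both from limma). Herc6, the main ISG15 ligase of the mouse, ranged from 1 to 7 in the cancers and from 1 to 30 in the controls.

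The oligoadenylate synthetases make the second messenger that activates RNase L, and 3 of 5 members of this family were lower in the cancers, as were 18.3% of all genes tested, with a median log2 fold change of -2.55. Oasl1 (chr5:114923240-114937911), a family member that restrains Irf7 translation, showed FPKM of 5, 30, 7, 12 and 20 in the cancers against 336, 102 and 76 in the controls. It fell by 3.39 on the log2 scale (SE 0.67, limma adjusted p = 0.0088). Oas1a (chr5:120896257-120907525) had 5, 11, 9, 6 and 7 in the cancers against 151, 39 and 18 in the controls, and fell by 2.55 (SE 0.61, limma adjusted p = 0.017). In both genes even control 3 exceeded every cancer. Oas2 had 1, 3, 3, 1 and 2 in the cancers against 106, 24 and 4 in the controls (log2 fold change -3.05, SE 0.87, limma adjusted p = 0.031). Its groups were separated by 1 FPKM, the step of the rounding. Oas3 had 2, 1, 2, 0 and 2 in the cancers against 52, 11 and 2 in the controls (log2 fold change -2.48, SE 0.86, limma adjusted p = 0.056). Oasl2 ranged from 6 to 15 in the cancers and from 13 to 205 in the controls. Oasl1 kept an adjusted p under 0.05 with each of the 8 samples left out, Oas1a lost it without control 2 (adjusted p = 0.0504 from limma), and Oas2 kept it in 2 of 8. Oas1a, Oas2 and Oas3 lie within chr5:120730333-120907525. Of the 50-base words of Oas1a transcripts, 57.6% were also found in transcripts of Oas1g, so the division of reads between these genes is uncertain.

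The IFIT proteins bind viral RNA and block its translation, and their genes form a cluster at chr19:34550694-34650009. They had the widest spread among the controls of all role groups, with a median range of 6.29 on the log2 scale. Gm14446, named Ifit1bl1 in RefSeq, showed FPKM of 2, 1, 4, 0 and 2 in the cancers against 782, 133 and 9 in the controls. Every control exceeded every cancer, and control 1 was 196 times the highest cancer. Its log2 fold change of -5.37 (SE 1.26, limma adjusted p = 0.016) was the largest in size among the members, and its adjusted p was 0.062 without control 2. Ifit1, which recognizes RNA caps that lack a host methyl group, had 4, 1, 5, 2 and 3 in the cancers against 234, 42 and 2 in the controls (log2 fold change -3.06, SE 1.22, limma adjusted p = 0.085). Ifit3, a partner that stabilizes this binding, had 7, 1, 8, 2 and 1 in the cancers against 159, 29 and 1 in the controls (log2 fold change -2.46, SE 1.31, limma adjusted p = 0.17). For both, control 3 was within the range of the cancers although control 1 was 46.8 and 19.9 times the highest cancer. Ifit2 differed from its neighbors, with FPKM of 5, 1, 5, 3 and 4 in the cancers against 7, 1 and 0 in the controls (log2 fold change 0.77, SE 0.67, limma adjusted p = 0.39). Ifit3 shared 51.2% of its 50-base words with other genes, mainly Ifit3b, and its value is uncertain to that degree.

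Of the other antiviral effectors, 2 of 6 were lower in the cancers, beside 18.3% of all genes tested, and their median log2 fold change was -2.24. Rsad2 (viperin), which makes a nucleotide that stops viral polymerases, showed FPKM of 2, 0, 1, 0 and 2 in the cancers against 101, 17 and 2 in the controls (log2 fold change -3.31, SE 1.04, limma adjusted p = 0.043). Mx1, a dynamin-like GTPase that blocks influenza viruses, had 2, 1, 2, 1 and 1 in the cancers against 89, 17 and 2 in the controls (log2 fold change -2.85, SE 0.93, limma adjusted p = 0.048). In both genes control 3 was level with the highest cancers, and the exact permutation test gave p = 0.054. Isg15, Mx1 and Rsad2 kept an adjusted p under 0.05 in 1 of the 8 fits that left out a sample, the fit without control 3. With TPM none of these 3 kept it (adjusted p = 0.080, 0.068 and 0.054 from limma), and Isg15 also lost it with quantile normalization (adjusted p = 0.053 from limma). Bst2 (tetherin), which holds budding virus at the cell surface, had 33, 21, 31, 19 and 15 in the cancers against 598, 123 and 20 in the controls (log2 fold change -2.28, SE 0.93, limma adjusted p = 0.090). Cmpk2, the neighbor of Rsad2 at chr12:26442743-26479837, ranged from 2 to 5 in the cancers and had 76, 14 and 3 in the controls. Mx2 ranged from 0 to 3 in the cancers and from 0 to 18 in the controls, and Samd9l, which restricts poxviruses, from 9 to 28 and from 21 to 97.

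The guanylate-binding proteins and immunity-related GTPases, which disrupt the vacuoles of intracellular pathogens, had a median log2 fold change of -1.73, and 0 of 8 passed the threshold. Igtp (Irgm3) showed FPKM of 12, 5, 16, 3 and 6 in the cancers against 147, 32 and 10 in the controls (log2 fold change -2.20, SE 0.83, limma adjusted p = 0.073). Gbp3 had 5, 2, 6, 2 and 1 in the cancers against 82, 17 and 2 in the controls (log2 fold change -2.13, SE 0.98, limma adjusted p = 0.12). Control 3 lay within the cancers for both. Iigp1 had 4, 1, 8, 2 and 1 in the cancers against 40, 8 and 0 in the controls, and Gm4951 had 1, 0, 1, 0 and 0 in the cancers against 24, 4 and 0 in the controls. Control 3 was listed at 0 for these genes, level with or below every cancer. Gbp2 and Gbp7, which lie near Gbp3 at chr3:142530338-142638008, ranged from 2 to 7 and from 1 to 4 in the cancers and from 5 to 65 and from 1 to 13 in the controls. Irgm1 and Irgm2 ranged from 8 to 20 and from 2 to 6 in the cancers and from 7 to 153 and from 6 to 42 in the controls. For Irgm2 the exact permutation test gave p = 0.036, without adjustment for the number of genes, and limma an adjusted p of 0.059. Its control 3 was level with its highest cancer, at 6 FPKM.

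PARP9 and DTX3L form an enzyme complex that joins ADP-ribosylation to ubiquitylation, and PARP14 is a further ADP-ribosyltransferase. Parp9 showed FPKM of 10, 6, 13, 7 and 9 in the cancers against 63, 17 and 7 in the controls (log2 fold change -1.11, SE 0.60, limma adjusted p = 0.18). Dtx3l had 10, 4, 9, 4 and 8 in the cancers against 33, 10 and 5 in the controls, and Parp14 had 10, 3, 8, 3 and 7 in the cancers against 26, 9 and 5 in the controls. Their log2 fold changes were -0.79 and -0.83, and with TPM both were slightly above 0 (0.089 and 0.035). All 3 genes had control 3 within the cancers. Parp9 and Dtx3l have the same locus in the deposited table (chr16:35926515-35972621), so reads where they overlap may be shared.

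The other induced genes had a median log2 fold change of -1.35. The threshold was passed by 0 of 8, beside 16.2% of all genes tested higher and 18.3% lower. Slfn4, a Schlafen gene of myeloid cells, showed FPKM of 0, 0, 0, 2 and 1 in the cancers against 63, 28 and 0 in the controls (log2 fold change -3.10, SE 1.25, limma adjusted p = 0.087). Of all members it had control 2 the largest share of the way from control 3 to control 1, at 44.4%. Ifi44 had 2, 1, 3, 1 and 1 in the cancers against 61, 12 and 0 in the controls (log2 fold change -1.90, SE 1.15, limma adjusted p = 0.22). Trim30a had 8, 1, 3, 1 and 1 in the cancers against 49, 9 and 1 in the controls (log2 fold change -1.69, SE 1.0, limma adjusted p = 0.21). In each of these control 3 was at the lowest cancer value or below it. Apol9b had 4, 2, 6, 2 and 3 in the cancers against 76, 13 and 0 in the controls (log2 fold change -1.30, SE 1.21, limma adjusted p = 0.42), with control 3 below every cancer. Ifi35 ranged from 24 to 30 in the cancers and from 17 to 107 in the controls. Xaf1, which opposes an inhibitor of apoptosis, ranged from 7 to 18 and from 7 to 95, Rtp4 from 5 to 15 and from 8 to 94, and Phf11b from 0 to 7 and from 0 to 38. Apol9b shared 52.3% of its 50-base words with other genes, mainly Apol9a, and Phf11b shared 47.0%.

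Among the controls the order was the same for every member, with control 1 above control 2 and control 2 above control 3 in 46 of 46. Over all genes tested, control 1 was highest in 24.5%. The range between the highest and the lowest control was at least 1 on the log2 scale for all 46 members, as for 14% of all genes tested. Its median was 3.92 over the members and 0.415 over all genes. A range of at least 3 was found for 80 genes, of which 35 were members, and 26 of the 50 genes with the largest range were members. In the 38 members above 0 in control 3, control 1 was a median of 15.2 times control 3, from 2.06 times for Trim25 to 159 times for Ifit3. The other 8 were listed at 0 in control 3. Without control 1, the range between the other controls was at least 1 for 37 members. These values chose the members and are given as a description.

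**Figure D3:**
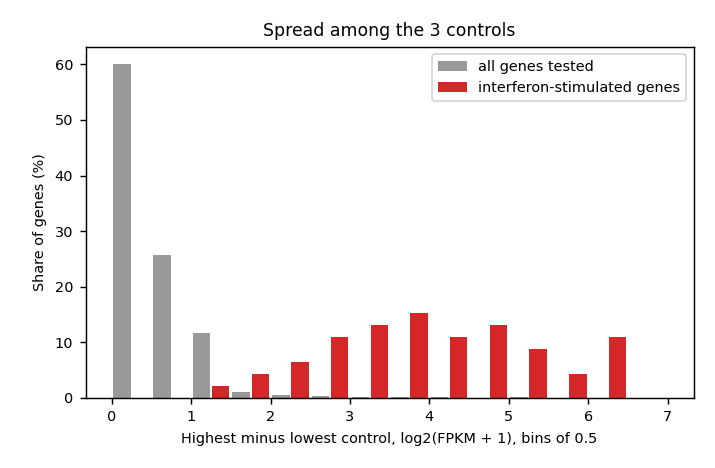
Bars show the share of genes (vertical axis, percent) by the range between the highest and lowest control on the log2(FPKM + 1) scale (horizontal axis, bins of 0.5), for the 46 members and for the 14357 genes tested. The members center on a median of 3.92 and all genes on 0.415.

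Control 2 lay at a similar place between control 3 and control 1 in most members. Measured as the share of the way from control 3 to control 1 in FPKM, its place had a median of 17.2% in the 38 members with at least 30 FPKM in control 1 and at least 4 times the value of control 3 plus 1, limits chosen after the values were seen. The quartiles were 15.9% and 18.1%, and the full range was 10% (Oasl1) to 44.4% (Slfn4). Over all 46 members, 36 lay between 14% and 20%, 5 below and 5 above. The lowest were Irf1 (3.57%) and Trim25 (5.41%), which the limits leave out. For the 56 other genes past the same limits the median was 16.2%, with quartiles of 13% and 18.9% and a full range of 0% to 70.6%. Of these 56, 16 are on the list of further interferon-stimulated genes and 6 have symbols of the MHC (H2-), and 1 is Y-linked. The 4 Y-linked genes examined (Ddx3y, Eif2s3y, Kdm5d and Uty), which were listed at 0 in control 3, had values in control 2 of 16.7% to 20% of those in control 1. Ifit1, at 17.2%, lay within the range of the Y-linked genes, and Isg15, at 15.4%, lay under it. The part of this in the spread among the controls was not tested.

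**Figure D4:**
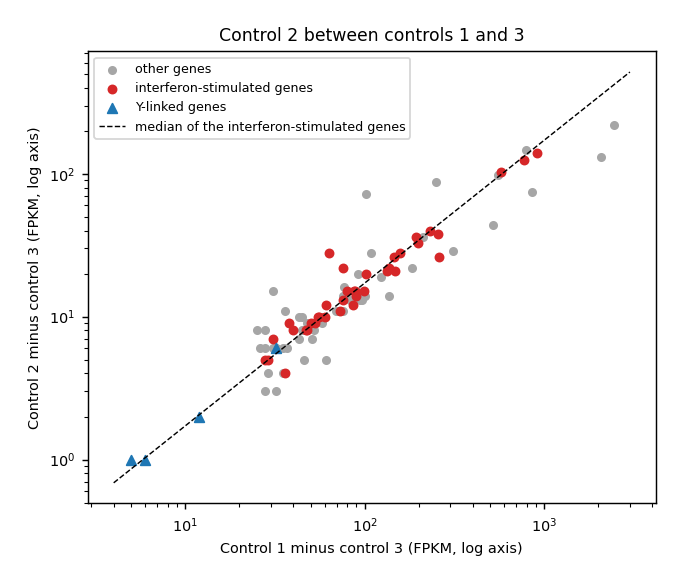
Each point is a gene, with control 1 minus control 3 on the horizontal axis and control 2 minus control 3 on the vertical axis (FPKM, both log axes), for 38 members, other genes past the same limits and above 0 on the vertical axis, and 4 Y-linked genes. The dashed line marks the median of the members, 17.2%, with most members and the Y-linked genes near it and Slfn4, at 44.4%, the member farthest above it.

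Against single controls the picture depended on the control taken. Control 1 exceeded every cancer in 45 of 46 members, and control 2 in 36. Control 3 lay within the range of the cancers in 32 members, above every cancer in 5 and below every cancer in 9. No share over all genes is given beside these counts, so they only describe the members. A comparison with control 3 as the only control was added after the values were seen. It rests on 1 control sample, so only the size of the difference is given. Its median log2 fold change was 0.33 over the members and -0.026 over all genes. The value was above 0 for 28 members and within 1 of 0 for 32. The members with a difference below -1 in that comparison numbered 4, and those above 1 numbered 10. Oasl1, Gm14446, Trim25 and Oas1a were below -1, and Apol9b, Zbp1 and Iigp1 were among those above 1.

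The members also varied among the cancers. Cancer 3 was the single highest cancer for 20 members and cancer 1 for 15, while cancer 4 was the single lowest for 14 and cancer 2 for 11. Oasl1 and Oas1a did not follow this order, since both were highest in cancer 2 and lowest in cancer 1. Zbp1 and Trim25 were highest in cancer 5. Members listed at 0 numbered 1, 4, 1, 4 and 2 in cancers 1 to 5 and 0, 0 and 8 in controls 1 to 3.

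RefSeq promoter windows, from 250 bases before to 50 bases after the start, were matched for 35 of the 46 members. No entry was matched for Iigp1, Mx1, Parp9, Parp14, Dhx58, Mx2, Usp18, Zbp1, Gm4951, Oas2 and Rtp4. ISRE letters were found in 23 of 35 members (65.7%) and in 9.76% of 27025 genes with a window of the same length. GAS letters (TTCNNNGAA, which read the same on both strands) were found in 8 of 35 members (22.9%) and in 9.55% of genes. The matches of the 2 motifs overlapped in 1 window of a member. The promoter of Isg15 held 3 ISRE matches, as did those of Ifit1 and Ifit3, and 11 members held at least 2. In 16 members a match lay within 100 bases before the start. The range among the controls had a median of 4.27 in the 23 members with ISRE letters and 3.29 in the 12 without, and the values overlapped widely. Trim25, with the narrowest range (1.02), held an ISRE match, and Slfn4, with a range of 6, held none. A match of letters is a description of the window and no evidence of binding.

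**Figure D5:**
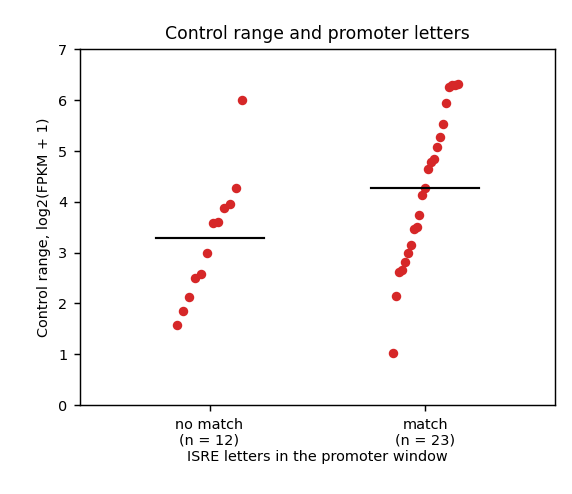
Each point is a member, with the range among the 3 controls on the log2(FPKM + 1) scale (vertical axis), for 12 members without and 23 members with ISRE letters in the promoter window (horizontal axis), and lines mark the medians. The medians are 3.29 and 4.27, and the points of both groups overlap.

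Interferon genes themselves were listed at 0 or 1 FPKM. Of 19 interferon genes found in the table, 18 were listed at 0 in all 8 samples, among them Ifnb1, and Ifne reached 1 FPKM in controls 1 and 3. Of the 6 receptor subunits, 1 was higher and 3 were lower in the cancers, beside 16.2% and 18.3% of all genes, but with TPM 3 were higher and 0 lower, beside 50% and 3.68% of all genes. Ifnar2, a chain of the type I receptor, showed FPKM of 45, 28, 48, 46 and 74 in the cancers against 6, 8 and 8 in the controls, and rose by 2.51 on the log2 scale (SE 0.28, limma adjusted p = 0.0014). Ifnar1, the other chain, ranged from 5 to 8 in the cancers and was 5 in each control. Ifngr1 and Ifngr2, the type II receptor, fell by 1.19 and 1.23 (adjusted p = 0.043 and 0.012 from limma), with log2 fold changes of -0.23 and -0.28 with TPM, and Ifnlr1, of the type III receptor, fell by 1.82, from 8, 4 and 6 to between 0 and 2 FPKM (adjusted p = 0.027 from limma). With 1 sample left out, Ifnar2 kept its call in 8 of 8 fits, Ifngr2 in 7, Ifnlr1 in 4 and Ifngr1 in 2. With TPM Ifnlr1 had an adjusted p of 0.088 from limma. None of the receptor genes had a range of 1 or more among the controls. Il10rb, the shared chain of the type III receptor, was between 27 and 37 in all 8 samples.

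Of 10 genes of receptor signaling, Irf8 was higher in the cancers (log2 fold change 1.24, limma adjusted p = 0.030) and Tyk2 was lower (log2 fold change -0.83, limma adjusted p = 0.013, and 0.03 with TPM), beside 16.2% and 18.3% of all genes tested. With TPM 6 of these 10 were higher and 0 lower, beside the same 50% and 3.68%, and with quantile normalization 3 and 1, beside 13.2% of all genes in each direction. Of 13 nucleic acid sensing genes tested, Tmem173 (STING) and Unc93b1 were higher, by 1.56 and 1.74 on the log2 scale, and Mavs, Ticam1 and Myd88 were lower, by log2 fold changes of -1.04, -0.77 and -0.57, again beside 16.2% and 18.3% of all genes. With TPM, 7 of these 13 were higher and 0 lower, again beside 50% of all genes higher, and the values of Mavs, Ticam1 and Myd88 were -0.11, 0.14 and 0.38. With 1 sample left out, Irf8 and Myd88 kept their calls in 4 of 8 fits each and Ticam1 in 6. Of the induced chemokines, 0 of 2 tested were called. Ccl5 had 23, 2, 7, 1 and 3 FPKM in cancers 1 to 5 against 2, 3 and 2 in the controls. Cxcl10 ranged from 1 to 5 FPKM in the cancers and from 0 to 1 in the controls (limma adjusted p = 0.065), and was called higher with TPM (adjusted p = 0.019) and with array weights (adjusted p = 0.017, both from limma).

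A further 64 interferon-stimulated genes outside the list were found, of which 57 were tested, and 4 were higher and 7 lower in the cancers, beside 16.2% and 18.3% of all genes tested. Their median log2 fold change was -0.36 (0.35 with TPM), and 51 were highest in control 1, with a median range among the controls of 1.77. Among the lower genes, Ddx60 showed FPKM of 2, 1, 3, 1 and 2 in the cancers against 98, 20 and 6 in the controls (log2 fold change -3.18, SE 0.75, limma adjusted p = 0.017), and Lgals9 fell by 2.24 on the log2 scale (adjusted p = 0.0089 from limma). Oas1g and Tdrd7 fell by 2.66 and 1.92. Isg20, an exonuclease, had 118, 74, 90, 58 and 73 in the cancers against 34, 14 and 11 in the controls, and rose by 2.14 (SE 0.37, limma adjusted p = 0.0058). For Isg20 control 1 was again the highest control, yet every cancer exceeded it.

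Markers of other cells were summed in each sample. The 3 leukocyte genes summed to 9, 8 and 10 FPKM in controls 1 to 3, to 130 in cancer 1 and to between 15 and 31 in the other cancers, and Ptprc (CD45) was 1 in each control, 21 in cancer 1 and between 1 and 5 in the others. The 8 macrophage genes summed to 77, 67 and 45 in controls 1 to 3 and to between 149 and 424 in the cancers. In the cancers 4 of 8 (C1qa, C1qb, C1qc and Csf1r) were higher, beside 16.2% of all genes tested. Csf1r kept its call in 4 of 8 fits with a sample left out. The order of the macrophage sum among the controls came from Lyz2, at 37, 23 and 13 in controls 1 to 3, and without Lyz2 the sum was 40, 44 and 32. The part of this in the members' spread was not tested. The 8 T and NK cell genes summed to 4, 5 and 5 in the controls, to 33 in cancer 1 and to between 1 and 6 in the other cancers. The 6 B and plasma cell genes summed to 7, 11 and 12 in the controls, to 215 in cancer 1 and to between 4 and 40 in the other cancers. Of the 5 plasmacytoid dendritic cell genes, Siglech was listed at 0 in the controls and Ccr9 and Cox6a2 in all samples. Of the others, Pacsin1 was 0 in each control and between 4 and 14 in the cancers, where it was higher (log2 fold change 3.21, limma adjusted p = 0.0027), and Klk1 was 10, 14 and 15 in the controls and ranged from 1 to 72 in the cancers. The 3 neutrophil genes found summed to 173, 105 and 366 in the controls and to between 12 and 823 in the cancers. Gastric gland genes summed to 169500, 106538 and 147033 in controls 1 to 3 and to between 520 and 52865 in the cancers, squamous genes to between 1540 and 2580 and to between 0 and 1653, and neuroendocrine genes to between 119 and 180 and to between 7551 and 16644. The tissue of the controls thus carried both epithelia of the SCJ, whereas squamous markers were listed at 0 in cancer 1. Pgc, a marker of chief cells, was 28832 in control 1 and listed at 0 in controls 2 and 3, and between 3 and 6762 in the cancers. Without Pgc the gastric gland genes summed to 140668, 106538 and 147033 in controls 1 to 3. The part of tissue makeup in the difference between cancers and controls was not tested.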

How the data were processed

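RNA of 5 cancers and 3 controls was sequenced as directional poly-A libraries. The authors trimmed reads with cutadapt 1.8 and quantified UCSC mm10 genes with cuffquant and Cuffnorm 2.2.1, and the submitters' processing notes also name TopHat2 2.0.13. The deposited FPKM are rounded to whole numbers and were treated as a score, not as read counts. All 100% of values were whole. Genes that reached 1 FPKM in 3 samples or more entered the fit, on log2(FPKM + 1), a pseudocount of 1 that understates changes of low genes, by limma 3.58.1 under R 4.3.3 (lmFit and a trended eBayes), Benjamini-Hochberg adjustment over all 14357 genes and a threshold of 0.05. The code was tested on simulated data. Single genes also had an exact permutation test, two-sided, over the 56 ways to divide 8 samples into 5 and 3. Its p-values were not adjusted for the number of genes. The members, gene lists and tests were chosen with earlier results of these data known. In each of 9 role groups, values are given in every sample for the 3 members with the largest change and the 2 with the largest control range, and Ifit2 was added after its values were seen. Of the pathway lists, up to 5 genes past the threshold with the largest change were named, and Cxcl10, Ifnar1 and the marker genes were named beside them. Promoters, motif positions and annotation came from RefSeq (GRCm38.p6), and shared 50-base words from GENCODE transcripts. Alternatives were a pseudocount of 0.1, TPM, quantile normalization, other filters, array weights, a replicate block and leaving out each sample. 1 gene of the signaling list is not reported here.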

Additional observations from a re-analysis of the deposited data

Results flagged for a closer look

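Trim30a stood out among the 5 cancers, where cancer 1 had 8 FPKM against 1, 3, 1 and 1 in the others, a gap of 0.714 of the group's range. It was the 1 member of 46 examined with such a gap. By chance about 2.3 would have one if values were independent and continuous. The values here are low whole numbers with ties, so that figure may not apply. Cancer 1 also had the highest sum of leukocyte markers, 130 FPKM against 15 to 31 in the other cancers. The part of this in the Trim30a value was not tested.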

How the results depend on the processing

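The number of interferon-stimulated genes called lower in the cancers, 8 of 46, was 4 with TPM, 14 with array weights and between 2 and 28 when each sample was left out, 3 without control 1, 2 without control 2 and 28 without control 3. With TPM 1 member, Irf1, was higher. With control 3 as the only control, chosen after seeing the data, the median log2 fold change of the members was 0.33. Of the further interferon-stimulated genes, 4 were higher and 7 lower. These became 10 and 4 with TPM. The number higher was 2 with a mean FPKM of at least 5 and 9 with array weights. When each sample was left out, between 2 and 4 were higher and between 4 and 13 lower. Over all genes, calls were 2326 higher and 2622 lower, 7176 and 528 with TPM, 3909 and 4239 with array weights, 1244 and 2275 with a mean FPKM of at least 5, and between 1362 and 1518 higher and between 1186 and 1356 lower with a control left out. With a cancer left out, calls over all genes were between 1719 and 2459 higher and between 1665 and 2773 lower.

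With the replicate block 0 members were lower, with 2 at an unadjusted p under 0.05 (37.9% of all genes), and 2 of the further genes were higher and 0 lower. Calls over all genes were then 982 higher and 552 lower. The replicate numbers gave no sign of pairing, since samples with the same number had deviations correlated at -0.021, -0.194 and -0.104.

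With TPM 6 members changed sign, to 0.12 for Ddx58, 0.089 for Dtx3l, 0.45 for Ifi35, 0.49 for Irf9, 0.035 for Parp14 and 0.47 for Zbp1. Over the fits that left out 1 sample, values reversed without control 1 for Apol9b (-2.98 to 0.16), Ddx58 (-1.61 to 0.14), Herc6 (-1.78 to 0.19), Ifi35 (-1.07 to 0.22), Iigp1 (-2.45 to 0.23), Irf9 (-0.84 to 0.088) and Zbp1 (-1.69 to 0.78). With control 3 as the only control the reversed values were 2.06 for Apol9b, 0.18 for Bst2, 1.01 for Ddx58, 0.34 for Dhx58, 0.33 for Dtx3l, Gbp3 and Rtp4, 0.50 for Gbp7, 0.40 for Gm4951, 1.10 for Herc6, 0.63 for Ifi35 and Trim30a, 1.32 for Ifi44, 0.31 for Ifit1, 0.95 for Ifit3, 1.82 for Iigp1, 0.38 for Irf9, 0.76 for Irgm1, 1.12 for Mx2, 0.14 for Parp14, 0.28 for Parp9, 1.46 for Phf11b, 0.52 for Slfn4, 0.77 for Usp18, 0.54 for Xaf1 and 1.97 for Zbp1. Of all values of single members under the alternatives, 606 stayed on the same side of 0 and of the threshold, 54 were weaker, 33 stronger and 39 reversed. Of the other genes named, Myd88 (0.38), Ticam1 (0.14), Trp53 (0.86) and Tyk2 (0.027) changed sign with TPM and Trp53 (0.13) with quantile normalization, and with each sample left out Trp53 ran from -0.29 to 0.027 and Il10rb from -0.042 to 0.071. Their values under the alternatives were 306 with the same side of 0 and of the threshold, 76 weaker, 5 stronger and 10 reversed. Their cause was not tested. Rounding to whole FPKM leaves few steps for low members such as Gm4951 and Rsad2, and their values in the cancers cannot be ordered.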
